A study of Mus musculus with 12 samples.

Results

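Cell cycle genes were examined as 42 members chosen by symbol among the 55092 features of an RNA-Seq table from mouse abdominal aorta. All 42 symbols were found in the table, and they fell into 26 genes of mitosis, 10 genes of DNA replication and 6 regulators of G1 and of the entry into S phase. The 12 male mice formed 4 groups of 3. CFS and CFA were CCN2fl/fl mice, which carry floxed CCN2 and no Cre, infused for 7 days from mini-osmotic pumps with saline (CFS) or with Ang II (CFA). CSS and CSA were CCN2SMCΔ mice, floxed mice that also carry the tamoxifen-inducible Myh11–Cre-ERT2, infused in the same way with saline (CSS) or with Ang II (CSA). Ang II (angiotensin II) is a peptide hormone that constricts arteries and is infused in mice to provoke abdominal aortic aneurysm. Its dose was 500 ng/kg/min, and all 4 groups had been given 5 doses of tamoxifen from 8 weeks of age followed by a washout of 2 weeks. Cre under the Myh11 promoter acts in smooth muscle cells (SMCs), so CCN2, a matricellular protein also called CTGF, remains intact in the other cells of the vessel.

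A dividing cell passes from G1 through S phase, in which the genome is copied, to mitosis. Cyclins D and E with their kinases inactivate the retinoblastoma protein in G1, which frees E2F factors to switch on genes of DNA synthesis such as the Mcm helicase subunits and the ribonucleotide reductase genes. Genes of the spindle, the kinetochore and the mitotic kinases follow later in the cycle, when the DREAM repressor gives way to activators that bind CHR and CCAAT promoter elements. In a healthy adult artery SMCs are quiescent and mitosis transcripts are scarce, and they serve as a sign of dividing cells of any type when the wall is injured.

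The values were FPKM, which scale fragment numbers to gene length and to a factor per library, so that levels may be compared between genes. The median log2 ratio of a library to the mean over libraries was 0.019 in each of the 12, over 15848 genes above 0 in all. The deposited values were thus already centred between libraries, and the medians near 0 over all tested genes below follow largely from that scaling. Recovered fragments per mouse numbered 14555508 to 23102746, the lowest in mouse CSA03. That library stood apart: its deviations from the mean of CSA01 and CSA02 ran against the GC content of transcripts across 14407 genes (r = -0.51). Over the 42 members r was -0.68. Both are across genes, which are not independent replicates. Each other library was likewise set against the other mice of its group. Over the 14407 genes r was 0.45 in CSA01 and 0.40 in CSA02, whose reference includes CSA03. It was between -0.11 and 0.10 in the 9 libraries of the other groups. The level of Ccn2, the targeted gene, was 255, 331 and 399 FPKM in the CSA mice against 1013, 1105 and 564 in CFA, 436, 640 and 587 in CSS and 710, 1108 and 480 in CFS. Ccn2 was lower in CSA than in CFA (log2 fold change -1.41 ± 0.34 SE, adjusted p = 0.0062), and the 3 CSS mice overlapped the CFS mice (log2 fold change -0.40 ± 0.34, adjusted p = 1). Differences below are log2 fold changes on the log2(FPKM + 0.1) scale, which understates the change of low genes, from a limma fit to all 12 libraries, with p-values adjusted over the 14676 genes that had at least 1 FPKM in at least 3 libraries. A gene is called different at an adjusted p under 0.05 with an absolute log2 fold change over 1.5. All 42 members were tested, but 15 of them, 14 of mitosis and Ccne1, reached the filter only with the help of the CSA mice. Whether counting used strand is not given in the sources used here, and the library protocol names no strand marking, so fragments of overlapping genes on opposite strands could not be told apart. Such overlap covered 22.8% of the exonic bases of Ube2c (with Tnnc2), 23.4% of those of Ccnd1, 17.4% of those of Ccne2 (with Ints8) and 12.5% of those of Ccna2 (with Exosc9), and annotated pseudogenes could share reads with Ccnb1, Ccnb2, Pcna, Tyms and Ccnd3.

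Promoter sequence from RefSeq (GRCm38.p6) matched 34 of the 42 members by symbol, each as a window of 300 bases that starts 250 bases before the transcription start. On both strands, the CHR element (TTTGAA, or the variant TTCGAA) occurred in 17 of 22 windows of mitosis members (77.3%), in 2 of 9 of replication members (22.2%) and in 19.4% of the 27025 windows of all genes. The CCAAT box occurred in 77.3% of the windows of mitosis members, 88.9% of those of replication members and 37.9% of all. An E2F element (TTCCCGC, the variant TTCGCGC, the variant TTGCCGC or the variant TTGGCGC) was found in 3 of 22 mitosis windows (13.6%), 6 of 9 replication windows (66.7%) and 9.69% of all windows. Both CHR and CCAAT were present in 15 of the 22 mitosis windows (68.2%), against 7.7% of all windows, and the windows of Ccnd3, Ccne1 and E2f1 held none of the 3 motifs. A match describes the letters of the window and is not a site of binding.

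**Figure D1:**
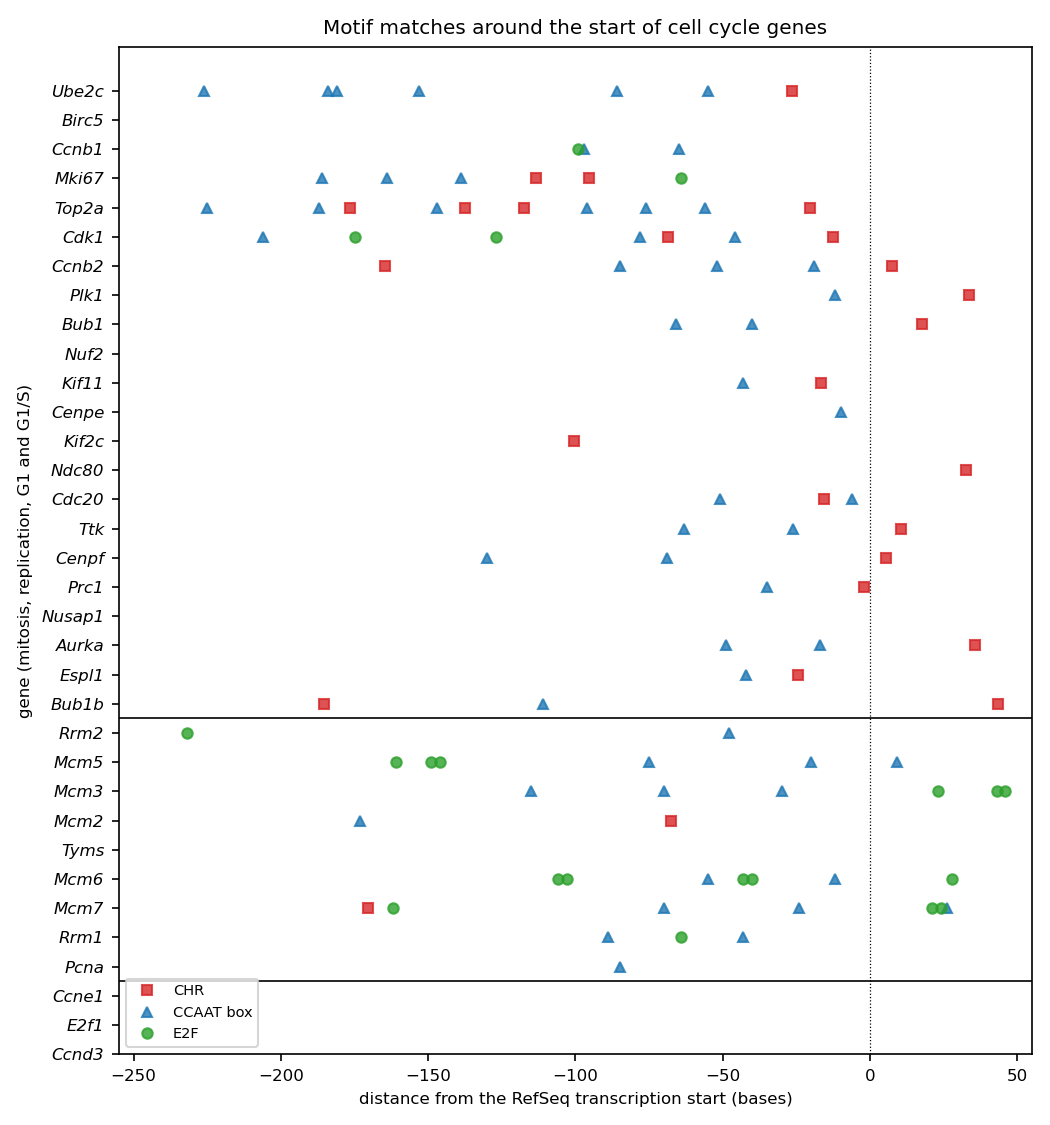
Motif matches in the promoter windows of 34 cell cycle genes. The x axis is the distance in bases from the RefSeq transcription start and each row is a gene, with CHR as squares, CCAAT boxes as triangles and E2F elements as circles. CHR squares lie in 17 of the 22 rows of mitosis genes, and E2F circles in 6 of the 9 rows of replication genes.

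The stretches just upstream of the start are shown for mitosis members that differ in the number and spacing of these elements, 5′ to 3′ on the strand of the gene, with motif letters in capitals. Top2a, which encodes the topoisomerase that untangles sister chromatids, had 4 CHR matches, the largest number printed here (200 bases, chr11:99024190-99024389, minus strand). Cdk1, the mitotic kinase (chr10:69352913-69353032, minus strand), and Mki67, which encodes the Ki-67 proliferation antigen (chr7:135716380-135716499, minus strand), had 2 each. Cdc20, an activator of the anaphase-promoting complex (chr4:118437344-118437463, minus strand), and Espl1, the separase that cuts cohesin (chr15:102296173-102296292, plus strand), had 1 CHR near the start. In the stretch of Ccnb1 (cyclin B1; chr13:100786487-100786606, minus strand) the capitals mark 2 CCAAT boxes, the first overlapping an E2F element, and no CHR.
Top2a: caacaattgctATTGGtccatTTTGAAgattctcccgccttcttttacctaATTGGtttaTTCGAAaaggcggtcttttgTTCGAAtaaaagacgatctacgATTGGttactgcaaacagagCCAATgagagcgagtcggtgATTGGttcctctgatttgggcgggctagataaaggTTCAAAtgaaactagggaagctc
Cdk1: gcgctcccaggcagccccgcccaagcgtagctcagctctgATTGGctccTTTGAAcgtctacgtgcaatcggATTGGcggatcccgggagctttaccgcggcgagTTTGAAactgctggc
Mki67: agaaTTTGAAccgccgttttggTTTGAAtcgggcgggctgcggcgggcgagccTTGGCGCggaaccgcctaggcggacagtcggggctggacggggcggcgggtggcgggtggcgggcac
Cdc20: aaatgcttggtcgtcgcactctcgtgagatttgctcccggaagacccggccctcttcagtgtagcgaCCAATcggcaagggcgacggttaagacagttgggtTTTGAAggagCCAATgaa
Espl1: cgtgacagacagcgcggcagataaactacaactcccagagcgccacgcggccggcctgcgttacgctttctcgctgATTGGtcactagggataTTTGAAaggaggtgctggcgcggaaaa
Ccnb1: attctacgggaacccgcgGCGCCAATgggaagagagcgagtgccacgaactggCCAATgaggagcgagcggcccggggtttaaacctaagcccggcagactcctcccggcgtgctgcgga

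For comparison, the upstream stretches of 3 replication members carry E2F elements. Mcm6 (chr1:128359706-128359825, minus strand) had 4 E2F matches, overlapping in pairs on opposite strands, beside 2 CCAAT boxes. Rrm1 (chr7:102441575-102441694, plus strand) had 1 E2F match between 2 CCAAT boxes, and Mcm5 (170 bases, chr8:75109339-75109508, plus strand) had 3 E2F matches, the last 2 overlapping, and 2 CCAAT boxes.
Mcm6: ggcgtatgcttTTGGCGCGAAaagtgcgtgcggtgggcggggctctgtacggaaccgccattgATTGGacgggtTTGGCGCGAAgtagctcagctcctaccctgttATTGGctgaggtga
Rrm1: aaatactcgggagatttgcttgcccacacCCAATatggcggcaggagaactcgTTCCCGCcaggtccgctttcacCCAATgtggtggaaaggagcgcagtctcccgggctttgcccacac
Mcm5: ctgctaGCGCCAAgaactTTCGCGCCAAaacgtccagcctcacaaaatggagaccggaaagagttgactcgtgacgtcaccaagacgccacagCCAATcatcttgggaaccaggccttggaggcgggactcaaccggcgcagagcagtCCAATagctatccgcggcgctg

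To ask how cell cycle transcripts responded to Ang II in CCN2SMCΔ mice, the CSA mice were set against the CSS mice. All 26 mitosis members rose, with log2 fold changes from 2.10 (Espl1) to 3.95 (Birc5) and a median of 2.94, while the median over all tested genes was -0.06. Each of the 26 was called, against 10.9% of all tested genes called higher, and no CSA mouse overlapped a CSS mouse in any of them (26.3% of all tested genes did not overlap in that direction). The count was 26 in every fit that left out 1 mouse, CSA03 included, and 20 with a pseudocount of 1. The 12 mitosis members that would have passed the expression filter without the CSA mice were all among those called. Of the replication members 4 of 10 were called higher (Mcm2, Mcm5, Rrm2 and Tyms), and 9 had an adjusted p under 0.05 (22.3% of all tested genes were higher on that rule), with a median log2 fold change of 1.40. The G1 regulators split, with Ccne1 and E2f1 called higher, Ccnd1 and Ccne2 higher at an adjusted p under 0.05 and Ccnd2 and Ccnd3 lower at that threshold (23.9% of all tested genes were).

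**Figure D2:**
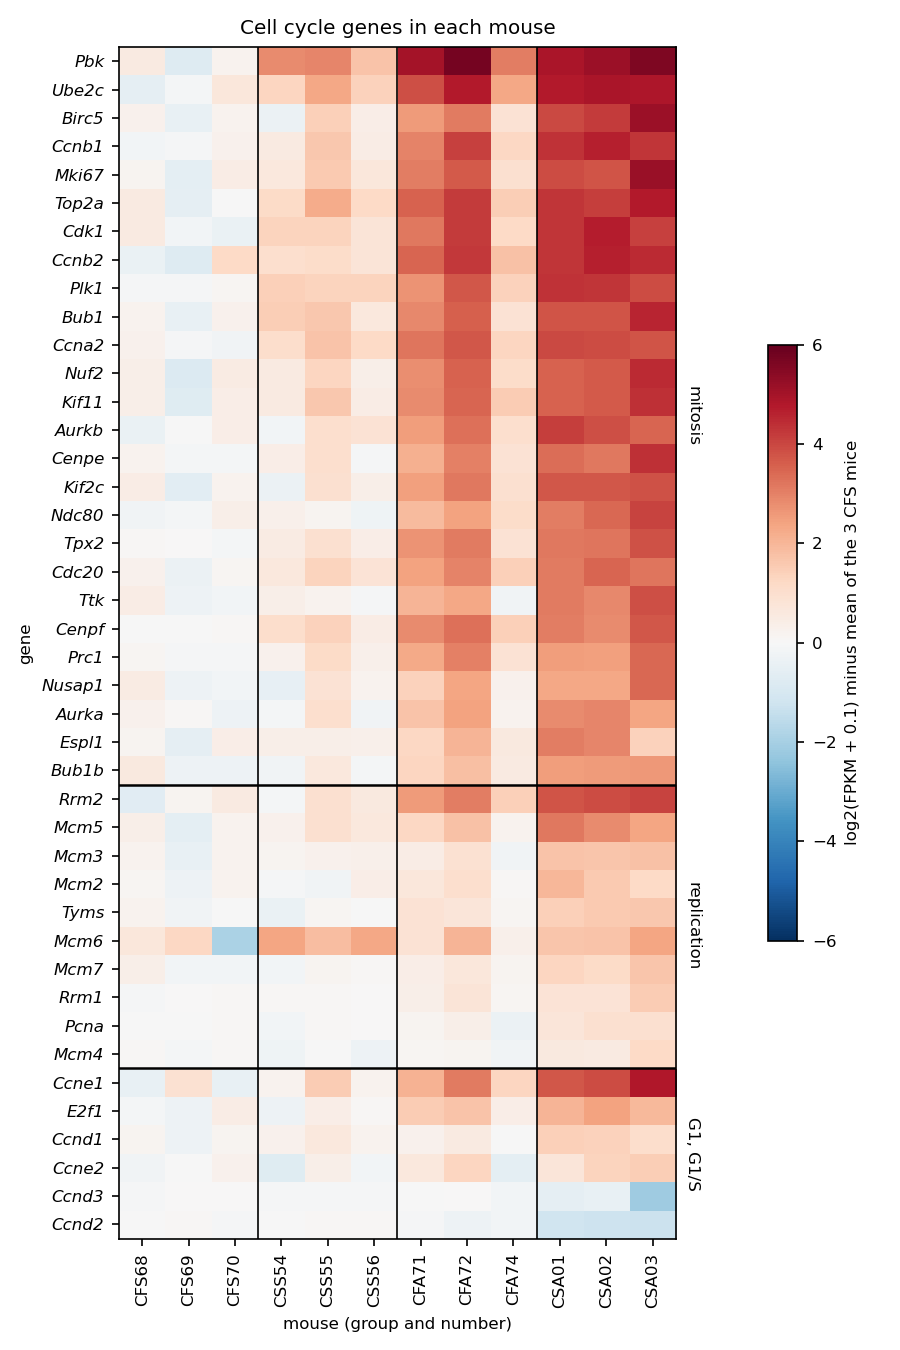
Levels of the 42 cell cycle genes in each of the 12 mice. Colour is log2(FPKM + 0.1) minus the mean of the 3 CFS mice, columns are mice and rows are genes in the blocks of mitosis, replication and G1 or G1/S. The mitosis rows are high in all 3 CSA columns and lowest of the CFA columns in CFA74, CFA72 reaches the lowest CSA mouse in 9 of the 26 rows and CFA71 in 2, and the Ccnd2 and Ccnd3 rows are low in CSA.

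To ask what the response to Ang II was with CCN2 intact, CFA was set against CFS. The mitosis members were higher by a median log2 fold change of 2.35, from 1.204 (Bub1b) to 4.61 (Pbk), against -0.00 over all tested genes. Only Pbk, a mitotic protein kinase, passed the threshold (adjusted p = 0.049), where 0.0204% of all tested genes were called higher. Unadjusted p-values under 0.05 were found for 25 of the 26 (5.61% of all tested genes), and in 22 of the 26 every CFA mouse was above every CFS mouse (9.44% of all). The call of Pbk was kept in 2 of the 12 fits that left out 1 mouse. Replication members moved less, with a median of 0.50, no call and 3 unadjusted p-values under 0.05. The largest difference among them was that of Rrm2 (2.35 ± 0.44, adjusted p = 0.10), the replication member with the lowest level in CFS.

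The CFA mice differed from each other. The summed level of the 26 mitosis members was 63.3 FPKM in CFA71, 105 in CFA72 and 20.3 in CFA74, against 5.82 to 9.31 in CFS and 120 to 158 in CSA. CFA72 had the highest and CFA74 the lowest value of the group in all 26 mitosis members, and CFA74 was lowest in all 10 replication members. CFA71 and CFA72 lay above all 6 saline mice in 26 of 26 mitosis members, and CFA74 did so in 9. Without CFA74, 21 of the 26 mitosis members were called higher in CFA than in CFS (0.763% of all tested genes were), together with Rrm2 and E2f1. The summed macrophage and monocyte markers were 302, 570 and 280 FPKM in CFA71, CFA72 and CFA74, those of smooth muscle were 7675, 8430 and 5517, and Ccn2 was lowest in CFA74. The part of these differences in the mitosis levels was not tested.

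To ask how the genotypes differed under Ang II, CSA was set against CFA. All 26 mitosis members had a log2 fold change above 0 (48% of all tested genes did), with a median of 1.34 against -0.04 over all tested genes. Of these, 8 were called higher (Birc5, Ttk, Mki67, Ndc80, Ccnb1, Cenpe, Plk1 and Aurkb), where 8.95% of all tested genes were, and Bub1b and Cdc20 also had an adjusted p under 0.05, where 19.5% of all tested genes were higher on that rule. Every CSA mouse exceeded every CFA mouse in 17 of the 26 (23.4% of all tested genes). The number called varied most with the CFA mice: it was 22 without CFA72 (9.57% of all tested genes) and 1 (Birc5) without CFA74 (8.24%). It was 3 to 5 without any other mouse, also without a CFS or CSS mouse, which are outside this contrast, and 2 in a fit of these 2 groups alone. The adjusted p of Mki67 (0.0499) and Ccnb1 (0.0489) lay close to the threshold, and both were lost without any 1 mouse other than CFA72. Without CSA03 the mitosis members called were Aurkb, Birc5, Espl1 and Plk1, and the median log2 fold change was 1.306. Of the 8 called with all mice, 7 had reached the expression filter only through the CSA mice, Mki67 being the exception. Among the 12 mitosis members that would have passed the filter without the CSA mice, 1 was called and 3 had an adjusted p under 0.05, shares near those of all tested genes. The adjusted p was at or over 0.05 in the other 16 members, and in 9 of the 26, among them Top2a, Cdk1 and Aurka, the CSA and CFA mice overlapped.

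**Figure D3:**
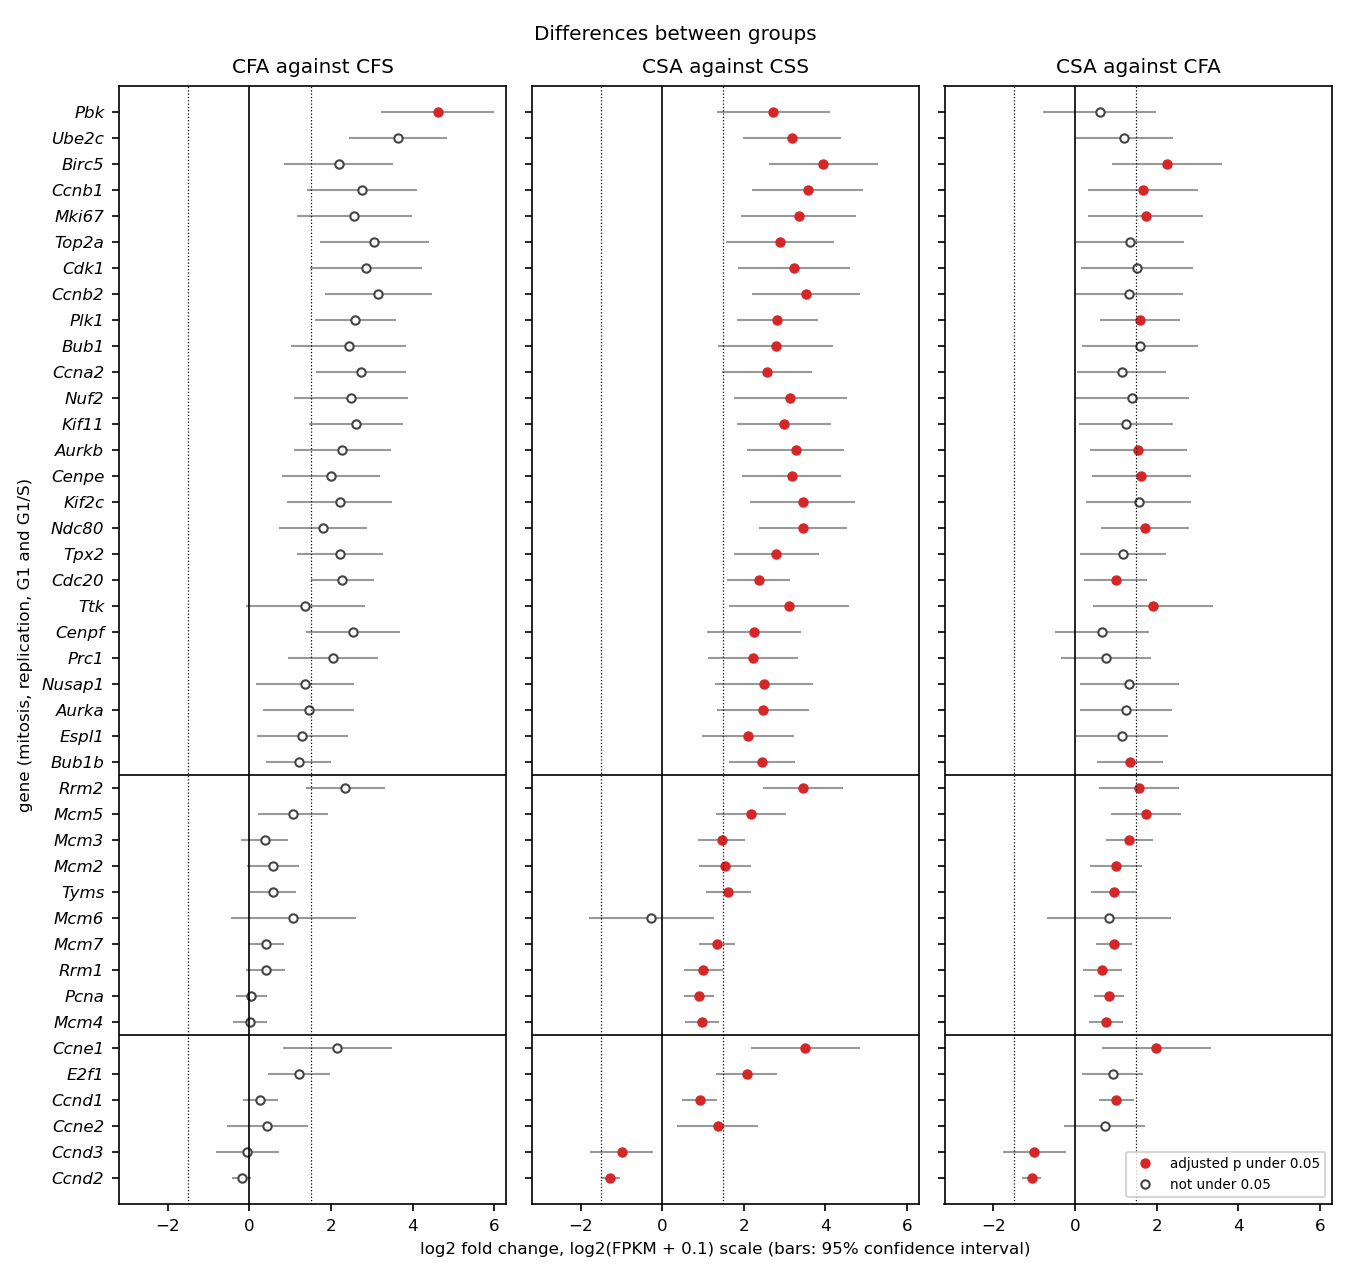
Differences between groups for the 42 cell cycle genes. The x axis is the log2 fold change with its 95% confidence interval, each row is a gene, filled points have an adjusted p under 0.05 and dotted lines mark log2 fold changes of -1.5 and 1.5. In CSA against CSS all 26 mitosis points are filled, in CFA against CFS 1 is, and in CSA against CFA 10 are.

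The 5 mitosis members with the largest differences between CSA and CFA are given with each mouse in the order of its number (CFS68, 69 and 70, CSS54, 55 and 56, CFA71, 72 and 74, CSA01, 02 and 03). Birc5 (chr11:117849251-117855743) encodes survivin, the inner-centromere partner of the Aurora B kinase. Its level was 0.270, 0.126 and 0.256 FPKM in CFS, 0.142, 0.730 and 0.311 in CSS, 1.74, 2.58 and 0.471 in CFA and 4.78, 5.64 and 10.7 in CSA. The CSA mice stood above all others, CSA03 highest. The log2 fold change was 2.25 ± 0.61 (SE) against CFA (adjusted p = 0.012) and 3.95 ± 0.61 against CSS (adjusted p = 0.00032), and both held in all 12 fits that left out 1 mouse.

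Ttk (chr9:83834689-83872389) encodes the spindle checkpoint kinase also known as Mps1. It was at 0.121, 0.0326 and 0.0471 FPKM in CFS, 0.109, 0.0878 and 0.0561 in CSS, 0.569, 0.709 and 0.0384 in CFA and 1.29, 1.08 and 2.30 in CSA. CFA74 lay among the saline mice, and the value there rested on 4 fragments. The difference between CSA and CFA was 1.91 ± 0.66 (adjusted p = 0.040), kept in 3 of the 12 fits that left out 1 mouse.

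Mki67 (chr7:135689784-135716361), the gene of the Ki-67 antigen stained to count cycling cells, had 0.430, 0.213 and 0.542 FPKM in CFS and 0.631, 1.29 and 0.667 in CSS. In the mice infused with Ang II it had 3.82, 5.92 and 0.835 in CFA and 7.07, 6.48 and 17.2 in CSA. CSA03 was the highest by far, and CFA74 fell within the range of CSS. On the log2 scale CSA03 deviated from the mean of CSA01 and CSA02 by 1.333 for Mki67, 1.035 for Birc5, 0.9005 for Ttk, 0.8167 for Ndc80 and -0.194 for Ccnb1. The part of the composition bias of CSA03 in these values was not tested. The log2 fold change was 1.74 ± 0.64 against CFA (adjusted p = 0.0499, kept only without CFA72 among the fits that left out 1 mouse) and 3.34 ± 0.64 against CSS (adjusted p = 0.0014).

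Ndc80 (chr17:71496100-71526857) encodes the kinetochore subunit that grips microtubules. Levels were 0.0333, 0.0412 and 0.0982 FPKM in CFS, 0.0912, 0.0748 and 0.0283 in CSS, 0.481, 0.726 and 0.232 in CFA and 1.198, 1.57 and 2.49 in CSA. Here the 3 CFA mice lay between the saline mice and CSA with no overlap on either side. CSA exceeded CFA by 1.71 ± 0.49 (adjusted p = 0.016, lost only without CFA74).

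Ccnb1 (chr13:100778650-100786570), the mitotic cyclin whose upstream stretch is printed above, stood at 0.0770, 0.0887 and 0.137 FPKM in CFS, 0.191, 0.512 and 0.174 in CSS, 1.46, 3.31 and 0.369 in CFA and 3.95, 4.95 and 3.85 in CSA. CFA72 came close to the CSA mice and CFA74 was within the CSS range. The difference of 1.67 ± 0.61 between CSA and CFA (adjusted p = 0.049) was kept in 1 of the 12 fits that left out 1 mouse, that without CFA72.

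**Figure D4:**
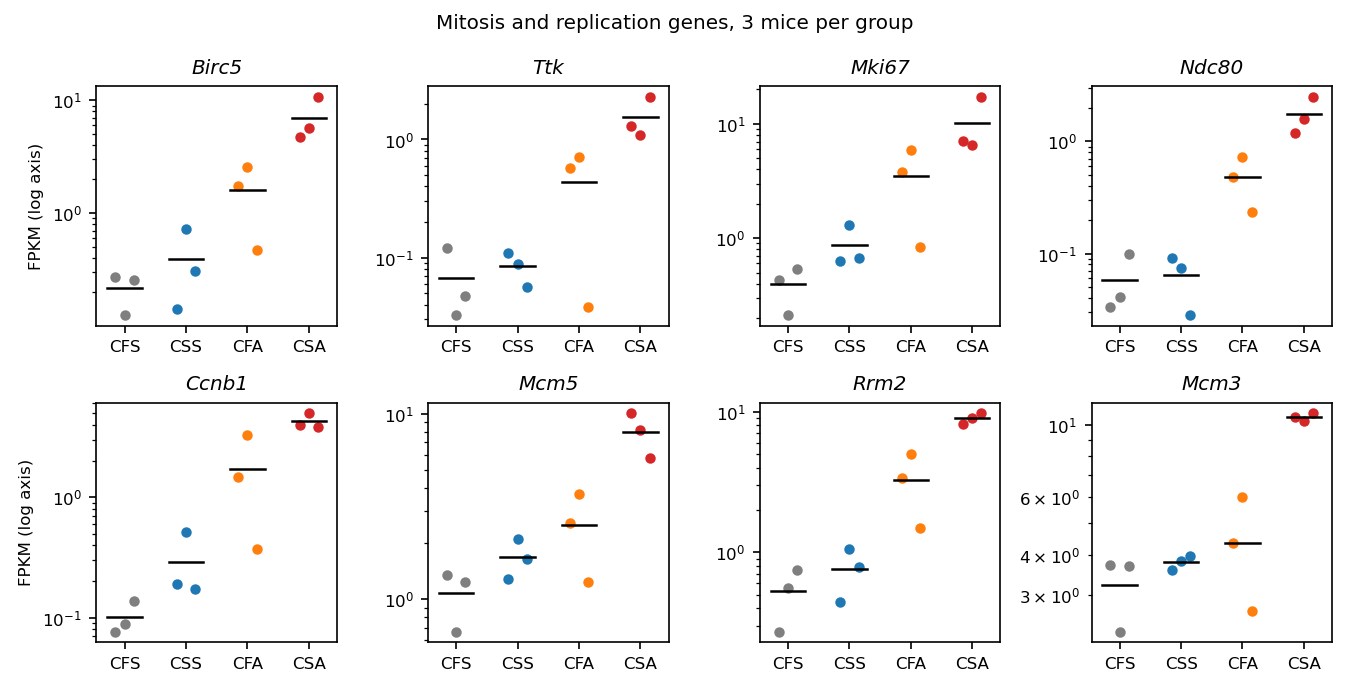
Levels of 5 mitosis and 3 replication genes in each mouse. The y axis is FPKM on a log axis, points are the 3 mice of a group in the order of their numbers and bars are group means. The third CFA point, mouse CFA74, is the lowest of its group in all 8 panels, and the 3 CSA points are the highest in all 8.

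Mean levels of the 26 mitosis members ran from 0.0556 FPKM (Bub1) to 1.17 (Cdc20) in CFS and from 1.39 (Cenpf) to 12.1 (Cdc20) in CSA. Plk1, the Polo-like kinase that acts from mitotic entry to cytokinesis, was at 0.246, 0.243 and 0.290 FPKM in CFS, 0.881, 0.810 and 0.794 in CSS, 2.21, 4.61 and 0.837 in CFA and 7.12, 6.97 and 5.40 in CSA. Its CSA mice were above all other mice, and its difference from CFA (1.59 ± 0.45, adjusted p = 0.015) kept an adjusted p under 0.05 in all 12 fits that left out 1 mouse. The 2 other called members were Cenpe, a kinetochore motor (1.63 ± 0.55, adjusted p = 0.035), and Aurkb, the kinase of the chromosomal passenger complex (1.55 ± 0.54, adjusted p = 0.041). Bub1b, a spindle checkpoint protein, passed on the adjusted p alone (1.34 ± 0.37, adjusted p = 0.013).

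Of the mitosis members that did not pass between CSA and CFA, Cdk1, the kinase that starts mitosis, was at 0.197, 0.0867 and 0.0588 FPKM in CFS, 0.414, 0.416 and 0.251 in CSS, 1.78, 3.64 and 0.373 in CFA and 3.89, 5.24 and 3.49 in CSA. CFA72 lay among the CSA mice, and the difference was 1.51 ± 0.62, adjusted p = 0.075. Ube2c, the conjugating enzyme of the anaphase-promoting complex, was at 0.0832, 0.144 and 0.335 FPKM in CFS, 0.559, 1.25 and 0.601 in CSS, 3.76, 7.09 and 1.25 in CFA and 7.18, 7.92 and 7.76 in CSA. Here all CSA mice were above all CFA mice, CFA72 coming close, and the difference between CFA and CFS was 3.64 ± 0.55, adjusted p = 0.052. Top2a, whose upstream stretch holds the 4 CHR matches, was at 0.444, 0.154 and 0.264 FPKM in CFS, 0.716, 1.61 and 0.750 in CSS, 4.15, 6.62 and 0.932 in CFA and 7.23, 6.46 and 9.85 in CSA, with CFA72 among the CSA mice. The cyclins Ccna2 and Ccnb2, the Aurora kinase gene Aurka, the checkpoint kinase gene Bub1, the kinetochore genes Cenpf and Nuf2, the kinesins Kif11 and Kif2c, and Nusap1, Tpx2 and Prc1, which act on spindle microtubules, had log2 fold changes between CSA and CFA from 0.67 (Cenpf) to 1.59 (Bub1), none with an adjusted p under 0.05.

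Pbk had the smallest difference between CSA and CFA of the 26 mitosis members. It had 0.151, 0 and 0.0971 FPKM in CFS, 1.11, 1.21 and 0.462 in CSS, 5.31, 9.16 and 1.34 in CFA and 5.03, 5.79 and 8.27 in CSA. The log2 fold change between CSA and CFA was 0.60, with a 95% interval from -0.78 to 1.99, and it turned to -0.16 without CFA74. Cdc20 had the highest mean level of the 26 in each of the 4 groups and reached 10.9, 14.2 and 11.4 FPKM in CSA against 6.51, 9.91 and 3.28 in CFA (0.9996 ± 0.35, adjusted p = 0.041). Espl1 was the mitosis member in which CSA03 deviated most downward from CSA01 and CSA02, at 0.947 FPKM against 3.29 and 2.95 in CSA01 and CSA02. Its transcript has 56.1% GC, the highest of the 26 mitosis members, and the part of base composition in its level was not tested.

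The replication members rose together in CSA by small amounts. The median log2 fold change between CSA and CFA was 0.95, and all but Mcm6 had an adjusted p under 0.05, where 19.5% of all tested genes were higher. None of those 9 had a CFA mouse above the lowest CSA mouse (23.4% of all tested genes did not overlap in that direction). Only Mcm5 and Rrm2 passed the fold limit as well (8.95% of all tested genes were called higher), and without CFA74 the 9 fell to 6. These genes start from a higher level than the mitosis members, with a median of group means of 2.77 FPKM in CFS against 0.238. Over the 36 mitosis and replication members the difference between CSA and CFA ran against the level in CFS (Pearson r = -0.487, Spearman rho = -0.458), across genes that share the same libraries. The same values were -0.826 and -0.686 for CSA against CSS and -0.739 and -0.66 for CFA against CFS, in which the CFS level enters the difference itself.

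Mcm5 (chr8:75109569-75128439), a subunit of the replicative helicase, had 1.35, 0.669 and 1.23 FPKM in CFS, 1.28, 2.12 and 1.65 in CSS, 2.56, 3.71 and 1.24 in CFA and 10.0, 8.18 and 5.80 in CSA. All CSA mice lay above all other mice, CSA03 being the lowest of them. CSA exceeded CFA by 1.73 ± 0.39 (adjusted p = 0.0045) and CSS by 2.18 ± 0.39 (adjusted p = 0.00089), in all 12 fits that left out 1 mouse.

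Rrm2 (chr12:24708241-24714146) encodes the small subunit of ribonucleotide reductase, which supplies deoxynucleotides in S phase. It was at 0.273, 0.559 and 0.753 FPKM in CFS, 0.447, 1.05 and 0.779 in CSS, 3.38, 4.97 and 1.48 in CFA and 8.12, 8.97 and 9.70 in CSA. Each Ang II group stood clear of its saline group. The difference from CFA was 1.57 ± 0.44 (adjusted p = 0.015, lost without CFA74) and that from CSS 3.46 ± 0.44 (adjusted p = 8.6e-05).

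Mcm3 (chr1:20802968-20820312), another helicase subunit, had 3.71, 2.32 and 3.68 FPKM in CFS, 3.59, 3.81 and 3.97 in CSS, 4.33, 6.003 and 2.68 in CFA and 10.5, 10.3 and 10.8 in CSA. The CSA mice were close to each other (SD 0.279 FPKM) and above all other mice, while CFA overlapped both saline groups. The log2 fold change was 1.33 ± 0.26 against CFA (adjusted p = 0.0019).

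The helicase subunits Mcm2 (1.004 ± 0.29, adjusted p = 0.018), Mcm4 (0.76 ± 0.19, adjusted p = 0.0071) and Mcm7 (0.95 ± 0.20, adjusted p = 0.003) and the clamp Pcna (0.83 ± 0.17, adjusted p = 0.0024) passed on the adjusted p alone, as did Tyms, the thymidylate synthase (0.95 ± 0.25, adjusted p = 0.011), and Rrm1, the large subunit of ribonucleotide reductase (0.67 ± 0.21, adjusted p = 0.029). Mcm4 was at 6.10, 5.27 and 6.07 FPKM in CFS, 4.87, 5.68 and 4.65 in CSS, 6.22, 6.49 and 5.01 in CFA and 8.69, 8.54 and 13.5 in CSA. The CFA mice overlapped both saline groups, and the CSA mice were above all others. Mcm7 was at 4.35, 2.97 and 3 FPKM in CFS, 2.99, 3.77 and 3.58 in CSS, 4.49, 5.41 and 3.85 in CFA and 8.29, 7.69 and 10.98 in CSA, again with the CSA mice above all others. The adjusted p of Mcm2 was over 0.05 without CFA74 or CSA01, and that of Rrm1 without CFA71, CFA74 or CSA03.

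Mcm6 (chr1:128331590-128359664), a further subunit of the helicase, did not follow the others. It had 6.23, 9.25 and 0.957 FPKM in CFS, 20.7, 14.2 and 19.6 in CSS, 7.24, 16.1 and 4.81 in CFA and 12.7, 12.8 and 20.1 in CSA. The saline CSS mice overlapped the CSA mice, and CFS70 was far below the other mice. None of the differences passed, with -0.27 ± 0.69 between CSA and CSS (adjusted p = 0.77), 0.83 ± 0.69 between CSA and CFA (adjusted p = 0.37) and 2.18 ± 0.69 between CSS and CFS (adjusted p = 0.56).

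The D cyclins, which start the retinoblastoma step in G1, went in opposite directions. Ccnd1 (chr7:144929931-144939925) was at 7.69, 5.57 and 7.84 FPKM in CFS, 8.46, 10.8 and 7.93 in CSS, 8.41, 10.2 and 6.85 in CFA and 18.9, 18.1 and 14.5 in CSA. The CSA mice were above all others, and Ccnd1 rose by 1.01 ± 0.20 against CFA (adjusted p = 0.0018) and 0.92 ± 0.20 against CSS (adjusted p = 0.0028).

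Ccnd2 (chr6:127125162-127152193), the member with the highest level in CFS, had 40.9, 44.2 and 39.8 FPKM there, 40.4, 43.7 and 43.1 in CSS, 39.8, 33.6 and 36.6 in CFA and 18.0, 17.4 and 17.0 in CSA. The 3 CSA mice were nearly equal and below every other mouse. Ccnd2 fell by 1.06 ± 0.10 on the log2 scale against CFA (adjusted p = 1.9e-05, where 21.2% of all tested genes were lower at an adjusted p under 0.05) and by 1.28 ± 0.10 against CSS (adjusted p = 4e-06).

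Ccnd3 (chr17:47505051-47599691) was at 15.48, 16.3 and 16.4 FPKM in CFS, 15.3, 15.2 and 15.4 in CSS, 16.0, 16.3 and 14.2 in CFA and 10.9, 11.68 and 3.52 in CSA. All 3 CSA mice were below all other mice and CSA03 was far below the other 2. The log2 fold change against CFA was -1.003 ± 0.35 (adjusted p = 0.040). Without CSA03 it was -0.45 and kept an adjusted p under 0.05, and in the 9 fits that left out a mouse of another group the adjusted p was over 0.05. The GC content of this transcript is 56.7%, and the part of the composition bias of CSA03 in this value was not tested.

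Cyclin E and E2f1 act at the step into S phase. Ccne1 (chr7:38097984-38107534) had 0.0406, 0.261 and 0.0436 FPKM in CFS, 0.121, 0.466 and 0.121 in CSS, 0.724, 1.56 and 0.372 in CFA and 2.498, 2.82 and 5.29 in CSA, with no overlap of CSA with any group. It exceeded CFA by 1.995 ± 0.60 (adjusted p = 0.022, lost without CFA71, CFA74 or CSA03) and CSS by 3.51 ± 0.60 (adjusted p = 0.00067).

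Ccne2 (chr4:11191351-11204779) overlapped between the Ang II groups, with 0.851, 0.994 and 1.24 FPKM in CFS, 0.570, 1.31 and 0.894 in CSS, 1.62, 2.63 and 0.648 in CFA and 1.73, 2.70 and 3.01 in CSA. Its difference between CSA and CFA was 0.73, with a 95% interval from -0.26 to 1.72 (adjusted p = 0.22), and that between CSA and CSS 1.36 ± 0.45 (adjusted p = 0.028, lost without CSS54, CSS56, CSA02 or CSA03). E2f1 (chr2:154559407-154569892), the activator of S phase genes, had 1.29, 1.10 and 1.91 FPKM in CFS, 1.13, 1.90 and 1.47 in CSS, 4.24, 4.75 and 1.88 in CFA and 6.14, 7.88 and 5.59 in CSA. CSA exceeded CSS by 2.07 ± 0.34 (adjusted p = 0.00051), and the difference from CFA was 0.92 ± 0.34 (adjusted p = 0.051).

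**Figure D5:**
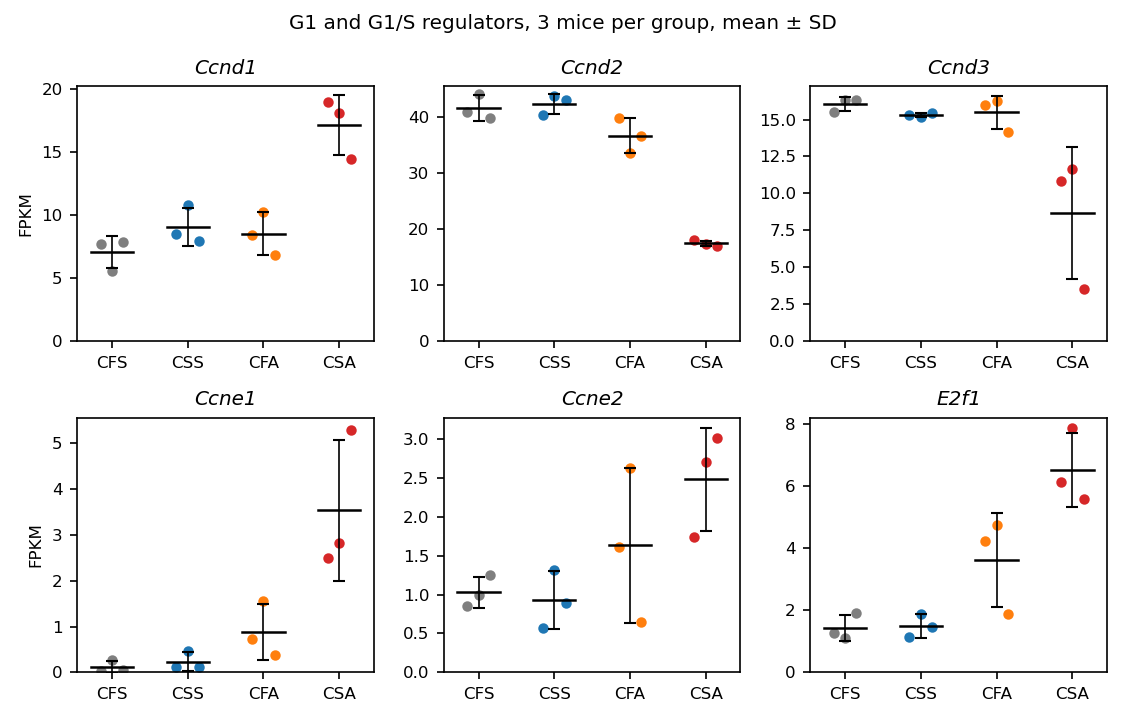
Levels of the 6 G1 and G1/S regulators. The y axis is FPKM on a linear axis from 0, points are the 3 mice of a group in the order of their numbers, and bars are the mean ± SD. The CSA mice are above all others in Ccnd1, Ccne1 and E2f1 and below all others in Ccnd2 and Ccnd3, in which CSA03 is the lowest point.

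The genotypes were also compared under saline, where Ccn2 itself overlapped between CSS and CFS (log2 fold change -0.40 ± 0.34 SE). In CSS against CFS by limma, 7 of the 42 members had an unadjusted p under 0.05, all higher, where 3.08% of all tested genes were. None of the 42 was called, and 0.0136% of all tested genes were called in either direction. All 26 mitosis members had a log2 fold change above 0 (52.6% of all tested genes did), from 0.07 (Ndc80) to 2.496 (Pbk) with a median of 0.81 and a smallest adjusted p of 0.35. These genes were read in the same mice and are not independent replicates, and Pbk rested on 5, 0 and 3 fragments in CFS. Every CSS mouse was above every CFS mouse in 14 of the 26 (11.1% of all tested genes). CSS55 was the highest of its group in 23 of them, and the summed level of the list was 12.8 to 22.7 FPKM in CSS against 5.82 to 9.31 in CFS. The replication members had a median of 0.05 and the G1 regulators 0.05.

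The interaction asks whether the difference between genotypes was larger under Ang II than under saline. For the mitosis members its median was 0.61, from -1.89 (Pbk) to 1.76 (Birc5), with no adjusted p under 0.05 in limma and 2 unadjusted p-values under 0.05, both higher (18.1% of all tested genes). Among the replication members Mcm4 (0.96 ± 0.26, adjusted p = 0.020), Mcm7 (0.93 ± 0.28, adjusted p = 0.032) and Pcna (0.85 ± 0.24, adjusted p = 0.023), the sliding clamp of the polymerases, were under 0.05, where 12.8% of all tested genes were higher on that rule. The adjusted p of Mcm4 was over 0.05 without CSS56 or CFA74, that of Pcna without CFS70 or CSS54, and that of Mcm7 without CFS68, CSS54, CSS56, CFA71 or CFA74. Pcna stood at 16.8, 16.5 and 17.6 FPKM in CFS, 15, 17.9 and 17.3 in CSS, 18.8, 21.6 and 13.3 in CFA and 27.7, 32.7 and 33.5 in CSA, and the CSA mice were above all others, while the CFA mice lay on both sides of the saline range. Ccnd2 had an interaction of -1.09 ± 0.15 (adjusted p = 0.00045, where 13.7% of all tested genes were lower at that threshold), kept in all 12 fits that left out 1 mouse.

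The wider cell cycle machinery was read from 7 lists of 118 other genes, of which those with at least 1 FPKM in 3 libraries were tested. As with the members, a gene could reach this filter only through the CSA mice, as Gins1 did. The filter thus favours counts higher in CSA in all these lists. Origin licensing and replication fork genes gave 16 of 27 tested higher in CSA than in CFA at an adjusted p under 0.05 and none lower (19.5% of all tested genes were higher). Of these, 7 were called, where 8.95% of all tested genes were called higher. The largest difference was that of Gins1, a subunit of the helicase activator GINS, at 0.787, 0.559 and 0.405 FPKM in CFA and 3.15, 3.70 and 8.22 in CSA (2.81 ± 0.42, adjusted p = 0.00030), followed by Mcm10 (2.19 ± 0.59) and the maintenance methylation cofactor Uhrf1 (2.12 ± 0.53). Gins1 in CFA overlapped both saline groups, at 0.714, 1.02 and 0.688 FPKM in CFS and 0.816, 0.534 and 0.303 in CSS.

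Other kinetochore and spindle genes gave 7 of 26 higher at an adjusted p under 0.05, 2 of them called (26.9% and 7.69% of the list, against 19.5% and 8.95% of all tested genes), Sgo1 (1.64 ± 0.51), the protector of centromeric cohesin, and the kinesin Kif20b (1.52 ± 0.49). The third by size, Ska3, did not pass (1.42 ± 0.64, adjusted p = 0.099). Against CSS, 24 of the 26 were called higher, where 10.9% of all tested genes were. Condensin, cohesin and cytokinesis genes gave 6 of 14 higher at an adjusted p under 0.05 (42.9%, against 19.5% of all tested genes), with the condensin subunits Ncapg (1.71 ± 0.63), Ncapg2 (1.59 ± 0.29) and Ncaph (1.25 ± 0.44) first. Of the 12 fits that left out 1 mouse, Ncapg kept an adjusted p under 0.05 in 1, Ncaph in 4 and Ncapg2 in all 12. Sgo1 kept it in 8 and Kif20b in 9. Of the cell cycle kinases and phosphatases 8 of 13 were higher at an adjusted p under 0.05 (61.5%, against 19.5%), led by Cks2 (1.79 ± 0.44), a small partner of Cdk1, then Melk (1.73 ± 0.51) and the checkpoint kinase Chek2 (1.39 ± 0.26). Cks2 and Chek2 kept an adjusted p under 0.05 in all 12 fits that left out 1 mouse, and Melk in 10. Cks2 had 7.56, 12.3 and 2.52 FPKM in CFA and 19.0, 23.0 and 23.2 in CSA.

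Of a list of other cell cycle transcription factors 3 of 5 tested were called higher in CSA than in CFA, where 8.95% of all tested genes were. E2f8 rose by 1.91 ± 0.45, E2f2 by 1.90 ± 0.39 and Myc by 1.83 ± 0.31 (adjusted p = 0.00082). Myc, which drives growth and G1 exit, was at 3.28, 4.91 and 3.11 FPKM in CFA, within the range of the saline mice, and at 14.2, 10.8 and 15.49 in CSA. The list of the Rb family and DREAM complex gave 4 of 12 higher and 3 lower at an adjusted p under 0.05 and no call. Of all tested genes 19.5% were higher and 21.2% lower at that threshold. Lin9 (1.299 ± 0.34) and the pocket protein Rbl1 (1.202 ± 0.28) were up and the E2F partner Tfdp2 (-1.02 ± 0.19) was down.

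The CDK inhibitors, which hold cyclin kinases in check, gave no adjusted p under 0.05 between CSA and CFA in limma (1 unadjusted p under 0.05 among 6 tested). Cdkn1a (p21) had 30.5, 31.3 and 36.9 FPKM in CFS, 27.0, 31.8 and 19.7 in CSS, 17.9, 23.0 and 17.3 in CFA and 30.7, 28.2 and 21.6 in CSA (0.46, 95% interval from 0.02 to 0.90, adjusted p = 0.091). Cdkn1b (p27) differed by 0.18 (95% interval from -0.12 to 0.47), Cdkn1c by -0.30 (-0.90 to 0.29), Cdkn2b by -0.45 and Cdkn2c by -0.13. Cdkn2d had 11.3 and 14.5 FPKM in CSA01 and CSA02 and 1.37 in CSA03, and its difference of -0.40 turned to 0.64 without CSA03. Cdkn2a was under the filter, at 0 to 0.402 FPKM in all mice.

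Markers of cell types moved with both contrasts of the CSA mice. Against CSS, in which all 26 mitosis members were called, 8 of 8 smooth muscle markers were lower at an adjusted p under 0.05, with sums of 814 to 963 FPKM in CSA and 7770 to 8815 in CSS. In the same comparison 8 of 8 macrophage and monocyte markers (1862 to 1964 against 218 to 265 FPKM), 6 of 6 tested neutrophil markers (512 to 564 against 4.33 to 5.66), 7 of 7 T cell markers (27.3 to 39.2 against 1.69 to 3.89) and 4 of 4 tested granulocyte precursor markers (8.63 to 12.8 against 0.193 to 0.553) were higher. All T cell markers and all tested granulocyte precursor markers reached the expression filter only through the CSA mice, as did Ly6c2, Itgam, Retnlg, Cxcr2 and Mmp8. Their counts higher in CSA, in this comparison and against CFA, were therefore nearly fixed by the filter. Of all tested genes 22.3% were higher and 23.9% lower than in CSS at that threshold, and 19.5% and 21.2% than in CFA. In bulk tissue, fewer cells of a type and less RNA per cell cannot be told apart. Against CFA, the 8 smooth muscle markers summed to 814 to 963 FPKM in CSA and 5517 to 8430 in CFA, and all 8 were lower at an adjusted p under 0.05. Macrophage and monocyte markers summed to 1862 to 1964 in CSA against 280 to 570 in CFA (8 of 8 higher), neutrophil markers to 512 to 564 against 11.01 to 27.96 (6 of 6 tested higher) and T cell markers to 27.3 to 39.2 against 1.01 to 2.62 (7 of 7 higher). Of the fibroblast markers 4 of 8 were higher and 2 lower, with sums of 6152 to 7274 FPKM in CSA and 3737 to 4152 in CFA. Granulocyte precursor markers, of cells that divide in bone marrow, summed to 8.63 to 12.8 FPKM in CSA and 0.252 to 1.05 in CFA, with Mpo and Ctsg at 0 in all 9 mice of the other groups. B cell markers summed to 6.26 to 8.99 FPKM in CSA against 1.47 to 2.55 in CFA, and those of lymph node stroma to 2.998 to 11.1 against 1.44 to 5.40. Erythroid precursor markers (56.1 to 567 FPKM in CSA and 695 to 2322 in CFA) were lower in 3 of 4 tested. Endothelial markers (93.4 to 118 against 174 to 392) were lower in 3 and higher in 1 of 6, and adipocyte markers (11.67 to 50.9 against 49.3 to 146) were lower in 2 of 5, all at an adjusted p under 0.05. The part of these changes in the cell cycle genes was not tested.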

How the data were processed

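RNA-Seq of abdominal aorta from 12 male mice was analysed, 3 separate mice per group, with groups taken from the labels. The deposited values are FPKM per gene as computed by the authors. The submitters' processing notes name HISAT2 2.0.5, StringTie 1.3.3b, featureCounts 1.5.0-p3 and mm10, with no roles given. Whole fragments, recovered from FPKM and gene length, came out whole (within 0.05, for values under 100) for 98.1 to 98.5% of values and give the depths stated. Genes with at least 1 FPKM in 3 libraries were tested on log2(FPKM + 0.1) with limma 3.58.1 in R 4.3.3 (1 coefficient per group, empirical Bayes with trend and robust fitting), with Benjamini-Hochberg adjustment over 14676 genes. The fit was tested on simulated data. The limit on the absolute log2 fold change (over 1.5) is that of the study. Its methods name no adjustment of p, but its volcano plot legend gives an adjusted p under 0.05, as used here.

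Genes described in full were the 5 mitosis and 3 replication members with the largest absolute log2 fold change between CSA and CFA and the 6 G1 regulators, with the 3 largest of each other list and all CDK inhibitors named beside them. Other members (Pbk, Cdc20, Espl1, Mcm6 and Pcna) and the promoters printed were chosen after values were seen. The members and lists were chosen with earlier results of these data known. Alternatives were another pseudocount, other filters, scaling to equal sums, plain empirical Bayes, fits of only the groups compared, no fold limit and leaving out each mouse.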

Additional observations from a re-analysis of the deposited data

Results flagged for a closer look

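In 10 of the genes described, the difference between genotypes under Ang II differed from that under saline by a test of the interaction itself (limma, adjusted p under 0.05 over all tested genes). On that rule 12.8% of all tested genes had an interaction above 0 and 13.7% had one below 0. Of the 42 members 3 (7.14%) were above 0 and 1 was below. Among the members these were Mcm4 (0.96 ± 0.26 SE on the log2 scale, adjusted p = 0.020), Mcm7 (0.93 ± 0.28, adjusted p = 0.032), Pcna (0.85 ± 0.24, adjusted p = 0.023) and Ccnd2 (-1.09 ± 0.15, adjusted p = 0.00045). Among the other cell cycle genes they were Gins1 (3.35 ± 0.59, adjusted p = 0.0019), Myc (1.86 ± 0.44, adjusted p = 0.010), Ncapg2 (1.43 ± 0.41, adjusted p = 0.025), Chek2 (1.38 ± 0.37, adjusted p = 0.017), Rbl1 (1.35 ± 0.39, adjusted p = 0.026) and Tfdp2 (-1.06 ± 0.27, adjusted p = 0.015). These other genes had been named by the size of their difference between CSA and CFA, which is a part of the interaction. The shares of all tested genes are therefore no background for them. The adjusted p stayed under 0.05 in all 12 fits that left out 1 mouse for Ccnd2, Tfdp2, Myc, Chek2 and Gins1, in 10 for Mcm4 and Pcna, in 9 for Ncapg2 and in 7 for Mcm7 and Rbl1.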

How the results depend on the processing

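Counts of called members among the 42 depended on single mice and on the treatment of low values, and the cause was not tested. Between CSA and CFA 11 were called, against 1 with a pseudocount of 1, 7 with no filter, 0 with a mean FPKM of at least 5, 5 with only the groups compared, 23 with no fold limit and 1 to 26 without 1 mouse. For the mitosis members alone the 8 became 1, 4, 0 and 2 under the first 4 of these and 1 to 22 without 1 mouse. Between CSA and CSS 32 were called, 1 with a mean of at least 5, which leaves few genes to test, and 30 to 32 without 1 mouse, and the 26 mitosis members became 1 and 26 to 26. Between CFA and CFS the 1 call, a mitosis member, became 3 with equal sums, 0 with a pseudocount of 1, no filter, a filter of 0.1 FPKM, no trend and robust fitting or only the groups compared, and 0 to 23 without 1 mouse (0 to 21 for mitosis). Between CSS and CFS there was no call in any setting. The interaction had no call, but 1 without trend and robust fitting, 4 with no fold limit and 0 to 1 without 1 mouse. The 9 replication members at an adjusted p under 0.05 became 4 in either comparison with a mean of at least 5, and 6 to 9 (against CFA) or 9 (against CSS) without 1 mouse. Leaving out 1 mouse turned 4 directions: between CSA and CFA the range was -0.1612 (without CFA74) to 1.1793 for Pbk, -0.2597 to 0.0167 (without CFA72) for Cdkn2c and -1.0141 to 0.6441 (without CSA03) for Cdkn2d, and between CFA and CFS it was -0.0913 to 0.0079 (without CFA74) for Ccnd3. No paired analysis was possible because the mouse numbers are not shared between groups. At the lowest levels a few fragments set a value.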
